A study of Homo sapiens with 6 samples.

Results

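The endothelin system was examined after knockdown of OCRL in HK2 cells, which are immortalised human proximal tubule cells. OCRL encodes a phosphoinositide phosphatase whose mutation causes Lowe syndrome. The genes considered were the ligand genes EDN1, EDN2 and EDN3, the receptor genes EDNRA and EDNRB and the converting enzyme gene ECE1. They were found as every probe set whose platform annotation gave 1 of these symbols, which returned 9 probe sets for 5 of the 6 genes, out of 11963 genes named on the array. No probe set was named for EDNRA, and this receptor was not analysed here. The family was taken up because the fall of EDN1 was known from this same comparison. The values of its genes are therefore given as a description, with no p-value.

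Both groups were HK2 cells kept in DMEM F12 medium with insulin, transferrin and selenium and transfected at 30% confluence with Dharmafect 4. One group received OCRL siRNA and the other a non-targeting siRNA, for 96 h, and each held 3 arrays from independent experiments, 6 in all. The labels describe 1 cell line and do not give the number of siRNA sequences, so an action of the OCRL siRNA on other transcripts cannot be told apart from an effect of lowered OCRL. RNA was taken from whole cultures, in which fewer cells expressing a gene and less of its RNA per cell cannot be told apart.

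Endothelins are short vasoconstrictor peptides. Furin-type convertases cut a large precursor to big endothelin, and the membrane metalloprotease ECE1 then releases the active peptide. The peptides act on the G protein-coupled receptors EDNRA and EDNRB, of which EDNRA binds the EDN3 product poorly. In the kidney, tubular EDN1 acts through EDNRB on sodium and water reabsorption, and in injury it is known as a signal for inflammation and fibrosis.

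The start of EDN1 is shown because its transcript changed, and that of EDN2 as the other ligand gene with a RefSeq window, whose transcript was not called. The sequences are the 250 bases before a transcription start in RefSeq (GRCh38.p14), EDN1 at chr6:12290111-12290360 on the plus strand and EDN2 at chr1:41484684-41484933 on the minus strand, each read along the gene. Of the 3 windows listed for EDN1, the one with a TATA box is given, so its TATA match was fixed by this choice. Capitals mark matches to any of 7 motifs searched on both strands, except the TATA box, which was searched along the gene and 20 to 40 bases before the start.
EDN1: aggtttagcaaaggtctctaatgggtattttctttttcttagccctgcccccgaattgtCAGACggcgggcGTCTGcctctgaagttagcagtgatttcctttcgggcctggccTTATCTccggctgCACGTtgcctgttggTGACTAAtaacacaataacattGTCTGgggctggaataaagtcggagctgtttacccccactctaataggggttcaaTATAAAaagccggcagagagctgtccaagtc
EDN2: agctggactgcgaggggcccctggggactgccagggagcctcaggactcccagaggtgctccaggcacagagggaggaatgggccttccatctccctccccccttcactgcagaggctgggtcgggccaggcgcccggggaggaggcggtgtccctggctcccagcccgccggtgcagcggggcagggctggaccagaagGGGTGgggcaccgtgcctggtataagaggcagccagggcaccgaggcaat
Counting to the first printed base of a match, the EDN1 window held TATAAA 31 bases before the start and TGACTAA, a variant of the AP-1 motif, 108 bases before it. It also held a GATA motif (AGATAA, on the other strand) at 136 bases, a hypoxia element core (ACGTG, on the other strand) at 123 bases and the SMAD motif CAGAC at 191, 179 and 86 bases. The last 2 of these were on the other strand. The EDN1 windows not printed matched neither TGACTAA nor AGATAA. No match to the AP-1 consensus TGANTCA or to the KLF motif CACCC was present in these letters. The EDN2 window matched CACCC alone, 50 bases before the start on the other strand. The TATA box had to match exactly, so the letters tataag near the end of the EDN2 window were not counted. Among all 35116 promoter windows cut to this length, TGACTAA was found in 1.6%, AGATAA in 9.2%, ACGTG in 18.5%, CAGAC in 38.0%, CACCC in 54.7%, TGANTCA in 6.6% and TATAAA at that distance in 2.3%. Binding at these letters was not measured.

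The log2 intensities had array medians of 7.23 to 7.24 in control and 7.27 to 7.30 in OCRL siRNA cells. The median log2 difference over all genes was 0.00, and Pearson's r across probe sets rounded to 0.998 or 0.999 within groups. The targeted gene fell: the brighter OCRL probe set read 9.49, 9.48 and 9.51 on the control arrays and 7.52, 7.49 and 7.40 on the OCRL siRNA arrays (log2 difference -2.02, SE 0.048, adjusted p = 1.24e-05, limma), which left 24.6% of the control signal. The dimmer OCRL probe set was left at 49.7%.

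EDN1, which encodes the main endothelin of the kidney, fell in OCRL siRNA cells. Its only probe set, 218995_s_at, read 9.70, 9.90 and 10.00 on the control arrays and 8.28, 8.19 and 8.11 on the OCRL siRNA arrays. The groups did not overlap, every knockdown value being lower than every control value. The mean log2 level went from 9.87 ± 0.151 (SD, n = 3) to 8.19 ± 0.087. The log2 difference was -1.67 (SE 0.086, 95% interval -1.87 to -1.47, limma), a 3.18-fold fall that left 31.4% of the control signal. By size it ranked 9 among the falls of the 22215 probe sets tested and 5 among those of the genes. On control arrays EDN1 stood at percentile 76.7 to 79.6 of all probe sets, and on OCRL siRNA arrays at 59.4 to 61.3. Its lowered signal stayed above the median probe set of every array. The spread of the control arrays was larger than that of the knockdown arrays, and the gap between the groups was wider than either. Leaving out any 1 array gave log2 differences of -1.75 to -1.60. No other probe set named for EDN1 was on the array to compare with it.

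**Figure D1:**
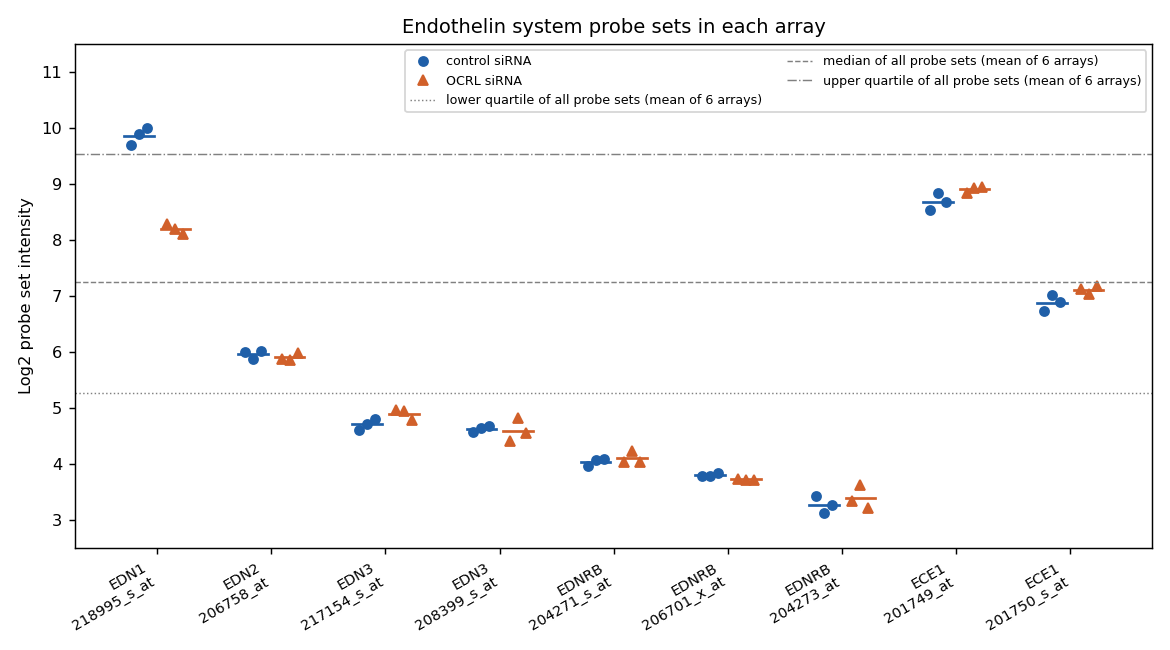
Log2 probe set intensity (vertical axis) of the 9 endothelin system probe sets (horizontal axis) on each of 3 control siRNA arrays (circles) and 3 OCRL siRNA arrays (triangles), with short lines at the group means and grey lines at the quartiles of all probe sets. EDN1 is above the upper quartile in control cells and between the median and the upper quartile in OCRL siRNA cells, whereas the EDN3 and EDNRB probe sets lie below the lower quartile in both groups. Heights of different probe sets are not amounts of different transcripts.

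The other ligand genes were dim. EDN2, whose peptide acts on the same receptors as that of EDN1, read 5.99, 5.88 and 6.01 in control cells and 5.87, 5.85 and 5.99 in OCRL siRNA cells. The groups overlapped, and the log2 difference was -0.06 (95% interval -0.20 to 0.08). EDN2 stood at percentile 32.7 to 35.0 in both groups. EDN3, the ligand known for neural crest development and preferring EDNRB, was measured by 2 probe sets. The brighter, 217154_s_at, read 4.60, 4.71 and 4.80 in control cells and 4.97, 4.94 and 4.79 in OCRL siRNA cells. One OCRL siRNA array fell within the control range, and the log2 difference was 0.19 (95% interval 0.02 to 0.37, not adjusted). The dimmer, 208399_s_at, differed by -0.04 (95% interval -0.28 to 0.20), so the EDN3 probe sets differed in sign. After quantile normalisation 217154_s_at was called higher, at 0.23. Both EDN3 probe sets lay below percentile 25 on every array.

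The measured receptor gene was near the bottom of the arrays. EDNRB, which also clears endothelin from the circulation, had 3 probe sets, all below percentile 25 on each array. The brightest, 204271_s_at, read 3.96, 4.07 and 4.08 in control cells and 4.04, 4.24 and 4.04 in OCRL siRNA cells, with overlapping groups and a log2 difference of 0.07 (95% interval -0.10 to 0.23). The difference was -0.08 for 206701_x_at (95% interval -0.17 to 0.02) and 0.12 for 204273_at (95% interval -0.17 to 0.41). Groups did not overlap for 206701_x_at, whose control arrays read 3.79, 3.79 and 3.83 against 3.74, 3.72 and 3.72. At so low a signal RMA compresses differences, so these values bound a change in signal and not in transcript.

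ECE1 showed small differences of like size in both of its probe sets. The brighter, 201749_at, read 8.53, 8.84 and 8.67 in control cells and 8.83, 8.93 and 8.94 in OCRL siRNA cells, a log2 difference of 0.23 (SE 0.083, 95% interval 0.03 to 0.42, not adjusted). The lowest OCRL siRNA array lay just under the highest control array. The dimmer, 201750_s_at, read 6.73, 7.02 and 6.90 against 7.12, 7.03 and 7.19, and here the groups did not overlap, with a difference of 0.23 (SE 0.082). Neither probe set was called after adjustment over all probe sets. Without control siRNA replicate 2, which gave the highest control value of both probe sets, both were called higher, at 0.30 and 0.30. The brighter was also called with trend and robust settings of limma or with dim probe sets left out. Those settings called 6378 probe sets and 5651 of the brighter ones, against 5137 of all in the main fit. ECE1 was thus near the threshold, and whether its transcript changed was not settled at this number of arrays.

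Called here means an adjusted p under 0.05 in a limma fit over all probe sets. Of the 9 endothelin system probe sets, 1 was called lower, that of EDN1, and 8 were not called. Among all probe sets 23.1% were called, 9.89% lower and 13.2% higher, and after median centring of the arrays 2274 were higher and 3138 lower against 2939 and 2198 as deposited. By the brightest probe set of each gene, 1 of 5 endothelin genes was called, against 26.0% of all genes, 10.5% lower and 15.5% higher. Groups did not overlap in 3 of the 9 probe sets, those of EDN1, 206701_x_at for EDNRB and 201750_s_at for ECE1, whereas they did not overlap in 40.7% of all probe sets and in 44.9% of genes by their brightest probe set. Because EDN1 was chosen from this comparison, nothing is read from these counts. The 95% interval, not adjusted, excluded 0 for EDN1, 217154_s_at of EDN3 and both probe sets of ECE1. The share of all probe sets with such an interval was not counted, so nothing is read from this either.

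**Figure D2:**
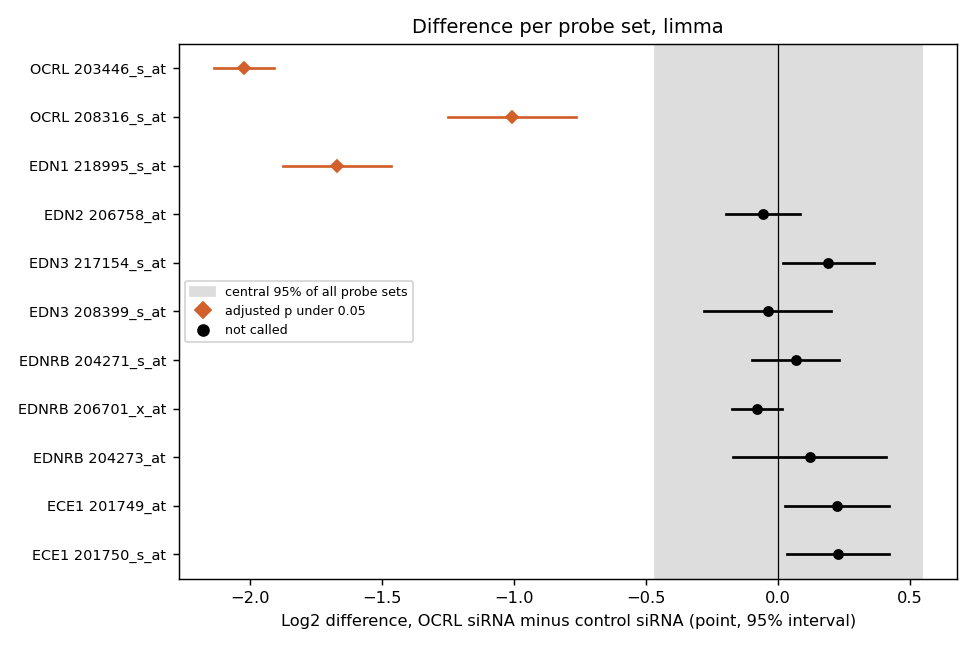
Log2 difference, OCRL siRNA minus control siRNA (horizontal axis), with 95% interval from limma for the 2 OCRL and 9 endothelin system probe sets (vertical axis), diamonds for those called and circles for the others. The grey band spans the central 95% of all probe sets, from -0.47 to 0.55. EDN1 at -1.67 lies between the OCRL probe sets at -2.02 and -1.01, and the other 8 points lie within the band.

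The lists of genes and markers used from here on were chosen with earlier results of these data known. Nothing is read from their counts, and adjusted p-values of genes named from them are given as descriptions. Around the ligand, enzymes that make or break endothelin were measured for 10 of 13 listed genes. CTSA and MME rose and 8 did not pass (20% called, against 26.0% of all genes), and the median log2 difference was -0.02. MME encodes neprilysin, a surface peptidase that degrades endothelins, and it rose from 7.35 ± 0.060 to 7.96 ± 0.072 (log2 difference 0.61, SE 0.056, adjusted p = 5.27e-04, limma), also by its other probe set. CTSA, a lysosomal carboxypeptidase able to inactivate the EDN1 peptide, rose from 10.43 ± 0.042 to 11.09 ± 0.038 (0.66, SE 0.046). FURIN, a convertase of the precursor, was at 7.11 ± 0.078 in control and 7.08 ± 0.096 in OCRL siRNA cells and was not called (adjusted p = 0.784, limma), nor was the second converting enzyme gene ECE2 (6.12 and 6.11).

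Of 39 measured genes of receptor signalling, 5 rose, 6 fell and 28 did not pass (28.2% called, near the 26.0% of all genes), with a median of 0.01. RGS2, an inhibitor of Gq signalling, rose by 0.70 (SE 0.040), and the related regulator RGS5 fell (-0.98, SE 0.059), as did its 2 other probe sets. The calcium-activated kinase gene PRKCA fell (-0.96, SE 0.066), with 1 of its 3 other probe sets called lower. The phospholipase gene PLCB1, which acts downstream of Gq, fell by 1 probe set (-0.66, SE 0.059), and its 2 other probe sets were not called. The related and brighter PLCB4 fell from 12.59 to 12.01 (-0.58, SE 0.064), as did its other probe set, while PLCB2 and PLCB3 were not called. The remaining called genes were GRK5 (0.48), ITPR3 (0.32), ROCK2 (0.27) and GNA12 (0.27), which rose, and PRKCZ (-0.22) and ITPR2 (-0.54), which fell. The other probe set of GRK5 and that of ROCK2 were not called. Of the others, 1 of 2 for ITPR3 was higher and 1 of 3 for ITPR2 lower. Of 11 measured tubular transport genes on which endothelin is known to act, 4 fell and 7 did not pass, with a median of -0.09. The share called was 36.4%, against 26.0% of all genes called in either direction and 10.5% called lower. Those that fell were the bicarbonate cotransporter gene SLC4A4 (-1.08, SE 0.046), the ubiquitin ligase gene NEDD4L (-0.43, SE 0.049), the sodium pump subunit gene ATP1B1 (-0.24, SE 0.043) and the sodium channel subunit gene SCNN1G (-0.22, SE 0.053). SCNN1G was dim, at 4.63 in control cells, and its call was lost without control siRNA replicate 2 (adjusted p = 0.0704, limma), OCRL siRNA replicate 1 (0.0697) or OCRL siRNA replicate 3 (0.0845) and with trend and robust settings (0.0842).

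Among 28 genes known to act on EDN1 transcription, 8 rose, 3 fell and 17 did not pass (39.3% called, against 26.0% of all genes), with a median of -0.02. Of the 28, 22 were above the median of every array, and the share called among all genes of like signal was not counted. TGFB2, a ligand of the pathway that induces EDN1 in many cells, fell from 11.41 ± 0.101 to 10.06 ± 0.047 (log2 difference -1.35, SE 0.062), as did its 3 other probe sets. A receptor gene of this pathway, TGFBR2, rose (0.55, SE 0.042), while its other probe set was not called. The ligand gene TGFB1 (-0.07) and the receptor gene TGFBR1 (0.01) were not called. YAP1 rose (0.23, adjusted p = 0.0419, limma). WWTR1 fell (-0.21, adjusted p = 0.0202, limma), while its 2 other probe sets were not called. KLF2, a shear-responsive factor known to lower EDN1 in endothelium, rose from 7.92 ± 0.166 to 9.07 ± 0.056 (1.16, SE 0.086), and KLF4 rose by 1.00 (SE 0.071), also by its other probe set. For the factors whose motifs were searched, genes were chosen by name with their values already seen. The AP-1 genes FOSL1 (0.86, SE 0.050), FOSB (0.44), FOSL2 (0.34) and FOS (0.89, SE 0.252) rose, JUND fell (-0.19), and JUN (0.08) and JUNB (0.17) were not called. The call of FOS was lost without any 1 array other than control siRNA replicate 3 (adjusted p = 0.0552 to 0.126, limma), and that of JUND without any 1 other than control siRNA replicate 2 (0.057 to 0.115) and with the replicate block (0.0549). GATA2 was at 7.58 in control and 7.62 in OCRL siRNA cells and HIF1A at 14.29 and 14.20, neither called. Of the SMAD genes, SMAD2 (-0.16), SMAD3 (-0.12) and SMAD4 (-0.02) were not called. Without OCRL siRNA replicate 1 or 3, 7 genes of this list were called, 6 higher and 1 lower.

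Of 28 measured genes of other vasoactive systems, NPPB alone was called, and it fell, while 27 did not pass (3.57% called, against 26.0% of all genes). This list was dim, with 5 genes above the median and 9 below the lower quartile of every array. Here too the share among all genes of like signal was not counted. The thromboxane receptor gene TBXA2R was not called by its brightest probe set, but 2 of the 3 others for this gene were higher by the same threshold. NPPB, the gene of B-type natriuretic peptide, read 8.77, 8.89 and 8.92 in control cells and 7.41, 7.33 and 7.47 in OCRL siRNA cells (log2 difference -1.46, SE 0.061, adjusted p = 3.50e-05, limma). The adrenomedullin gene ADM was at 10.82 in control and 10.86 in OCRL siRNA cells. Without control siRNA replicate 1 this list had 4 genes called, and without OCRL siRNA replicate 1 it had 2.

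**Figure D3:**
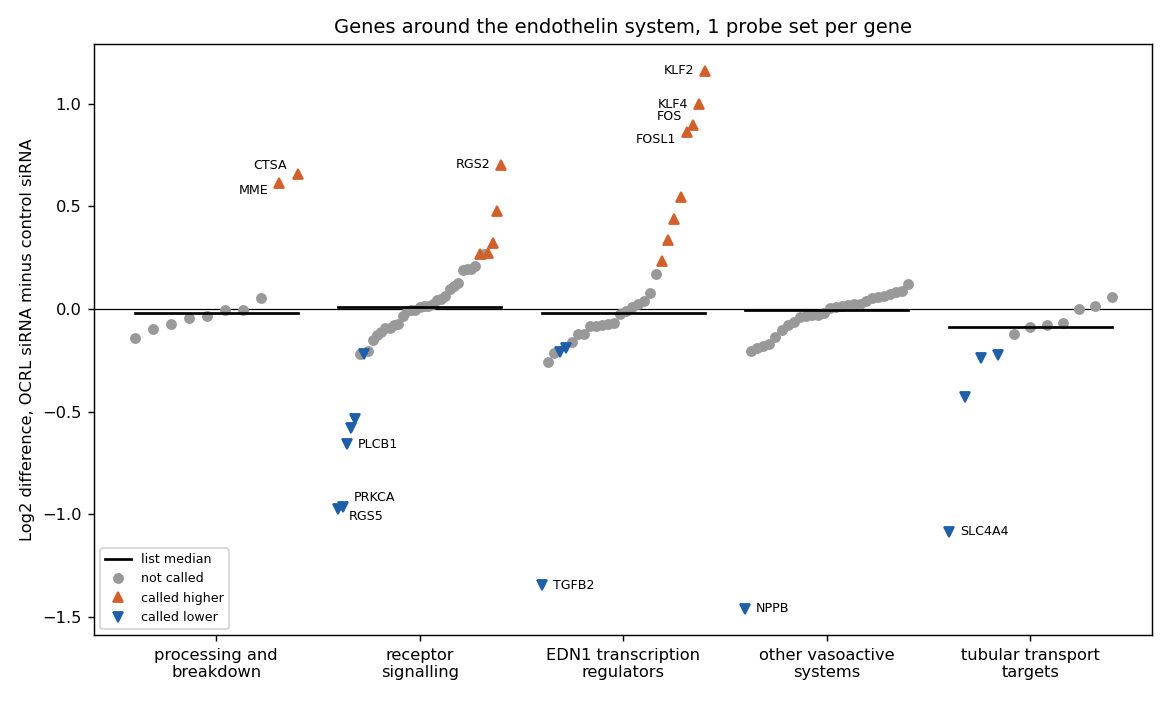
Log2 difference, OCRL siRNA minus control siRNA (vertical axis), of each measured gene in 5 lists around the endothelin system (horizontal axis, genes sorted by value), 1 probe set per gene. Triangles are genes called higher or lower, grey circles those not called, bars the list medians, which lie between -0.09 and 0.01, and names mark called genes with at least 1.5-fold. Called genes lie on both sides of 0 in the lists of receptor signalling and of EDN1 transcription regulators.

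The genes whose profile over the 6 arrays was nearest to that of EDN1 were TAGLN, KRT7, NPPB, GFRA1 and ATRNL1. Likeness was the root mean square difference between profiles, each taken relative to its own control mean on the log2 scale, and was 0.11, 0.15, 0.17, 0.18 and 0.20. All 5 were lower on every OCRL siRNA array. TAGLN, an actin-binding protein gene of contractile cells, differed by -1.53 and KRT7, a keratin gene of simple epithelia, by -1.49. The receptor gene GFRA1 differed by -1.48 and ATRNL1 by -1.86. With 2 groups this measure is mostly the size of the difference between them.

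**Figure D4:**
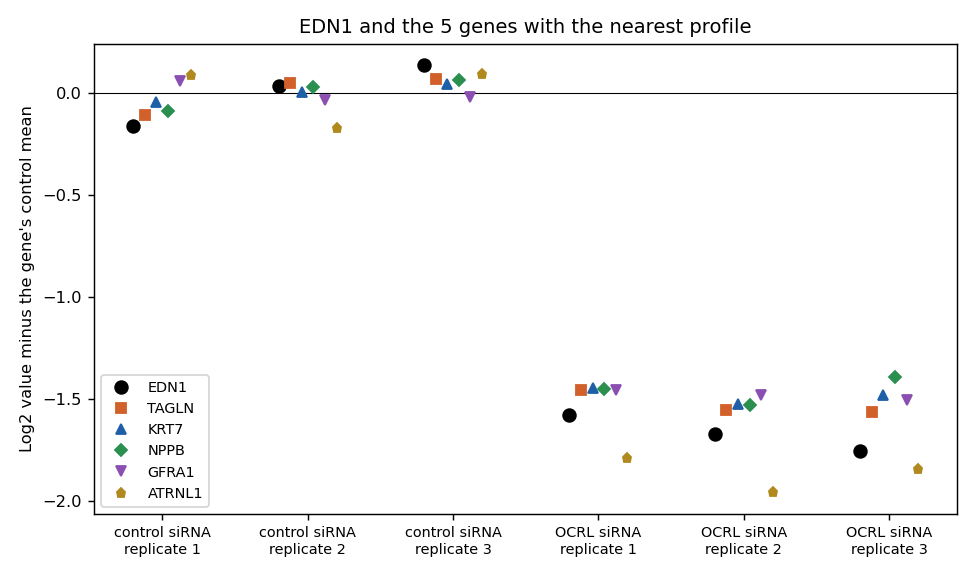
Log2 value minus the control mean of the gene (vertical axis) for EDN1 (large circles) and the 5 genes nearest to it in profile, on each array (horizontal axis). On the OCRL siRNA arrays EDN1 lies below TAGLN, KRT7, NPPB and GFRA1 and above ATRNL1.

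Markers of other cell types were read because endothelium is a known source of EDN1. Of 11 measured endothelial markers, none was above the array median on all arrays, 4 were below the lower quartile on all arrays, and their summed linear signal was 519 to 578 in control and 610 to 617 in OCRL siRNA cells. The endothelial transcription factor gene ERG alone was called (9.09% called, against 26.0% of all genes). It rose (0.91, SE 0.087) from a dim 5.19 in control cells, and 1 of its 2 other probe sets was called higher. The junction gene CDH5 was at 4.44 and 4.50. Smooth muscle and mesangial markers had 4 of 10 genes lower and 6 not called, against 10.5% of all genes lower and 26.0% called. Those lower were ACTG2, CNN1, MYLK and MYH11, and the 3 other probe sets of MYH11 were not called. Among the 6 were ACTA2 (5.84 and 5.86), DES (6.35 and 6.37), PDGFRB (6.54 and 6.62) and SMTN, whose other probe set was called lower. The summed signal of the list was 2646 to 2947 in control and 2330 to 2396 in OCRL siRNA cells. MYLK, at 10.88 in control cells, weighed most in it, the next brightest being SMTN at 8.02. The calls of MYLK and MYH11 were lost without any 1 array other than control siRNA replicate 1 (adjusted p = 0.0501 to 0.0657 and 0.0656 to 0.117, limma), and that of MYH11 also with the replicate block (0.0523) and with trend and robust settings (0.144). Epithelial markers had 5 of 10 lower and 1 higher, against 10.5% and 15.5% of all genes, with sums of 29042 to 29960 and 22822 to 23474. Of 11 proximal tubule markers, DPP4 and ANPEP rose and PAX8 fell (27.3% called, near the 26.0% of all genes), 3 were below the lower quartile on all arrays, among them the megalin gene LRP2 at 3.99, and the sums were 3469 to 3525 and 3449 to 3484. Only 2 were above the median of every array, DPP4 (9.44 to 10.11) and PAX8 (11.21 to 10.92). They moved in opposite directions, so the near-equal sums do not show unchanged markers. The call of ANPEP was lost without control siRNA replicate 1 or 2 or OCRL siRNA replicate 2 or 3 (adjusted p = 0.0575 to 0.0771, limma). Of 7 collecting duct markers GATA3 alone was called (14.3% called, against 26.0% of all genes), and it rose (0.50), with 1 of its 2 other probe sets called higher. The sums were 376 to 414 and 386 to 424. Limma called none of 9 leukocyte markers, with 1 at an unadjusted p under 0.05, and none of 5 melanocyte markers, with 0. Their summed signals were 409 to 454 and 395 to 433 for leukocytes and 264 to 295 and 254 to 273 for melanocytes. The part of these shifts in the fall of EDN1 was not tested.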

How the data were processed

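Total RNA of 6 HK2 cultures was biotin-labelled and hybridised to Affymetrix arrays of 1 colour, per the labels' protocols. The authors deposited RMA-scale log2 intensities, 1 per probe set and array. The submitters' processing notes name affy and RMA. Their versions are not given in the sources used here. RMA gives arrays a common distribution, so a shift shared by most genes would be lost. The number of arrays limits precision.

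The 62 AFFX controls were left out and 22215 probe sets were fitted with limma 3.58.1 in R 4.3.3 (group as the only term, two-sided, Benjamini-Hochberg over all probe sets, threshold 0.05). A gene was represented by its brightest probe set with 1 symbol. Symbols came from the platform annotation for 19064 probe sets, while 1043 had several symbols and 2108 none, and neither kind was named. SE and intervals are limma's moderated ones, differences are OCRL siRNA minus control siRNA, and values are means ± SD of 3 arrays.

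The genes and the 12 lists were chosen with earlier results of these data known. Genes named were those of the endothelin system, OCRL, the 5 nearest profiles and PLCB1, MME, TGFB2, SLC4A4 and CTSA. To these were added up to 4 called genes by smallest p from each list other than the marker lists. Called markers were named where a marker list had 5 or fewer of them, so those of the epithelial list were not. Any other gene was named with its value in view. The limma script was first tested on simulated data. Alternatives were the replicate block, each array left out, quantile normalisation, median centring, array weights, trend and robust settings, a 1.5-fold minimum, omission of dim probe sets (mean below the median of all) and other choices of probe set per gene. Plots used matplotlib 3.10.9 (Python 3.11.15).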

Additional observations from a re-analysis of the deposited data

How the results depend on the processing

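EDN1 and OCRL were called lower in all 13 alternatives that gave a value for them, EDN1 at log2 differences of -1.75 to -1.60. EDN1 was chosen for its fall on these same arrays, so this describes only how its value depends on the processing. The 1.5-fold minimum filters the main fit and could not change either call. EDN1 has only a probe set ending in _s_at, so with probe sets ending in _s_at and _x_at left out 0 of the endothelin genes with a probe set left were called by limma. With 1 array left out, 1 to 3 endothelin probe sets and 1 to 2 endothelin genes were called. With quantile normalisation 2 probe sets and 2 genes were called, the additional one being 217154_s_at of EDN3 (0.23). With trend and robust settings or with dim probe sets left out there were also 2 and 2, the additional one being 201749_at of ECE1 (0.23). In all, these settings called 6378 probe sets and 5651, the latter among the brighter ones only. Of the other vasoactive genes, 1 to 4 were called with 1 array left out, 2 after median centring, 3 with array weights and 2 with _s_at and _x_at left out. Regulators of EDN1 called numbered 7 to 10 with 1 array left out. With the 1.5-fold minimum, 806 probe sets were called in all, and 13 genes over the 5 lists in place of 29, of which 4 were of receptor signalling, 5 of EDN1 regulation and 1 of tubular transport. With _s_at and _x_at left out, 1 processing gene was called in place of 2. Among the single genes and probe sets recomputed, none changed sign while called.

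With the replicate number as a block, 4571 probe sets were called in place of 5137, EDN1 stayed at -1.67 and no call of an endothelin probe set changed. The deviations of same-numbered arrays from their group means correlated at 0.142, 0.123 and -0.00948, and not every array correlated best with its own number, so the numbers were not taken as pairs.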
